A study of Mus musculus with 95 samples.

Results

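The carriers examined here are the solute carrier families Slc5, Slc6, Slc7, Slc13, Slc22, Slc34 and Slc47, which hold most of the membrane proteins that take up glucose, amino acids, organic acids, sulfate and phosphate, and that pass organic ions, in the kidney proximal tubule. All probe sets were taken whose only gene symbol in the array annotation names a gene of these families, and each gene was represented by its probe set with the highest mean over 95 arrays. This gave 68 genes out of 17097, from 106 probe sets: 10 of Slc5, 16 of Slc6, 15 of Slc7, 5 of Slc13, 19 of Slc22, 2 of Slc34 and 1 of Slc47. Of the 68, 43 had a mean above the median of all gene means (5.71 on the log2 scale) and 25 were at or below it, among them Slc7a14, which lay at the lowest value of the arrays (2.21) on 94 of the 95 arrays.

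The study followed SNF1 mice, the F1 cross of the SWR and NZB strains, which develop lupus nephritis with age. Females were injected intraperitoneally at 9 weeks of age with 500 μl of pristane, a hydrocarbon oil, and kidneys were taken at weeks 2 (n = 9), 4 (n = 10), 8 (n = 8), 12 (n = 8) and 14 (n = 9) after injection. Age-matched SNF1 mice without treatment were taken at weeks 0 (n = 7), 2 (n = 10), 4 (n = 9), 8 (n = 10), 12 (n = 10) and 14 (n = 5). Whole-kidney RNA was hybridised to Affymetrix arrays, each taken here as 1 mouse, and the deposited values are log2 expression after RMA normalization.

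Cells of the proximal tubule reclaim nearly all filtered glucose, amino acids and phosphate through sodium-driven carriers of the brush border, and secrete drugs and organic wastes that basolateral carriers take up from the blood. The early segment carries high-capacity carriers and the straight segment takes up what is left. Many of these carriers work with a partner, such as the heavy chains Slc3a1 and Slc3a2 for light chains of the Slc7 family or Cltrn for Slc6a19.

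Array medians lay between 4.22 and 4.57 with no identical pair of arrays. How precise a mean can be is set by how many mice its group held. Of 7 measured genes that mark the proximal tubule, none was at the floor in a group, and their mean log2 level was 12.22 in untreated kidneys at week 14. The 3′ minus 5′ difference of the Gapdh control, a measure of RNA integrity, was 1.32 ± 0.125 (SD, n = 9) in pristane kidneys at week 14 and 1.08 ± 0.0545 (SD, n = 5) in untreated kidneys, while that of actin was 2.55 ± 0.169 and 2.53 ± 0.085. The other controls had the opposite sign to Gapdh, with 3.33 ± 0.182 in pristane and 3.58 ± 0.167 in untreated kidneys for the transferrin receptor, and 2.94 ± 0.786 in pristane and 3.90 ± 0.306 in untreated kidneys for pyruvate carboxylase. In whole kidney, fewer proximal tubule cells and less RNA per cell cannot be told apart.

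At weeks 2, 4, 8 and 12 few carriers passed the test between pristane and untreated kidneys. At week 2, 0 of 68 passed an adjusted p of 0.05, where 0.433% of all genes passed in either direction. An unadjusted p under 0.05 was found there for 9 of 68 carriers and for 1450 of 17097 genes. At week 8, 0 passed, where 0.181% of all genes did, and 7 carriers and 709 of all genes had an unadjusted p under 0.05. At week 12, 0 passed, where 0.0526% did, and 8 carriers and 1378 of all genes had an unadjusted p under 0.05. At week 4, 1 carrier was lower and 0 were higher, with 0.0234% of all genes lower and 0.246% higher.

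The carrier that passed at week 4 was Slc13a2, the brush border carrier of citrate and succinate. It ranged over 7.84, 8.05 and 8.19 (lowest, median and highest log2 value) in pristane kidneys and over 8.25, 8.45 and 8.82 in untreated kidneys of week 4, so that all 10 pristane values lay below the 9 untreated ones. The log2 fold change was -0.42 (SE 0.0705, adjusted p = 0.0195). The call did not hold without untreated mouse 4 (adjusted p = 0.0501) or 8 (adjusted p = 0.052), nor with all 11 groups in a single fit, and against untreated mice of all weeks the sign turned, to a log2 difference of 0.11 (adjusted p = 0.854). At weeks 2, 8 and 12 Slc13a2 had log2 fold changes of 0.01, 0.07 and -0.08.

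At week 12 the carriers that were to pass at week 14 still overlapped between groups. Slc22a7 ranged over 9.35, 10.52 and 11.16 in pristane kidneys and over 10.34, 10.66 and 10.98 in untreated kidneys (log2 fold change -0.33, adjusted p = 0.827). Slc34a2 ranged over 6.29, 6.68 and 8.40 in pristane kidneys and over 6.25, 6.55 and 7.63 in untreated kidneys (0.25, adjusted p = 0.828).

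**Figure D1:**
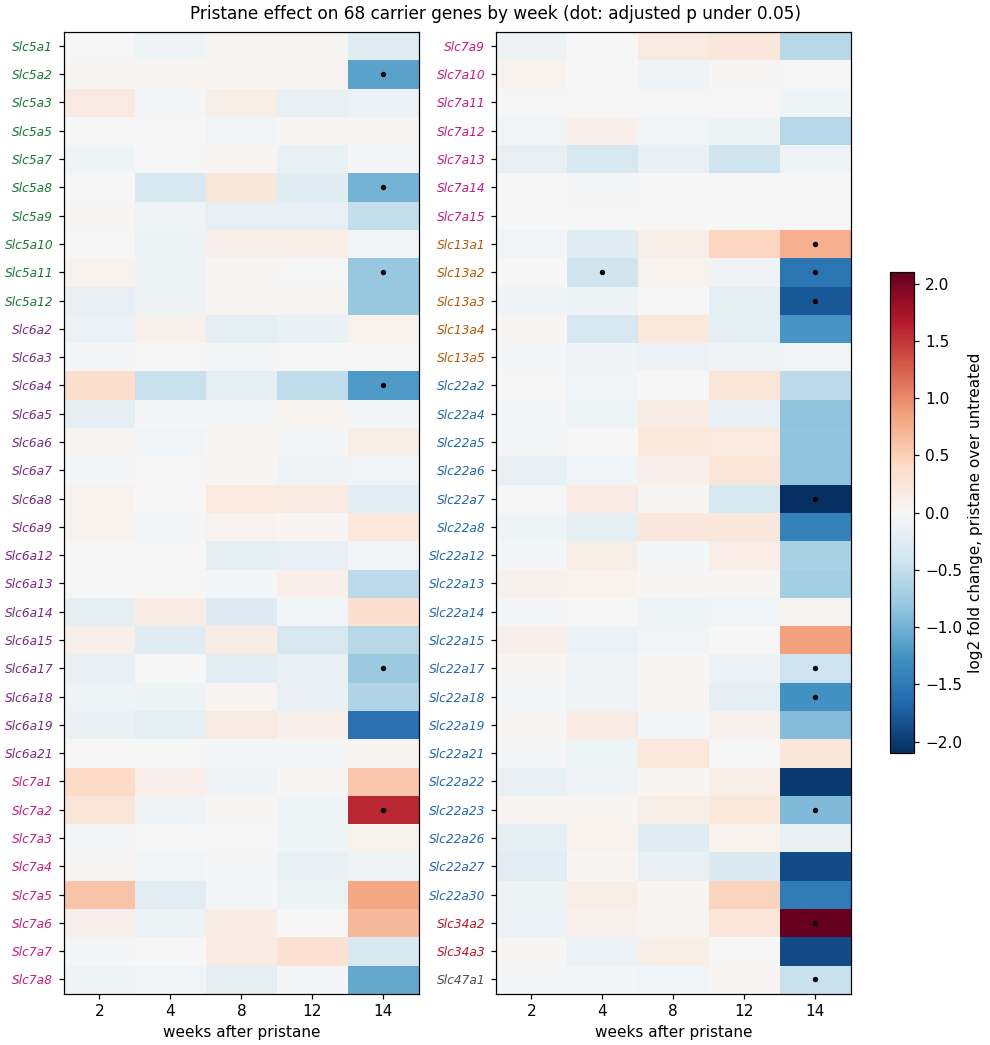
Log2 fold change of pristane over untreated kidneys for each of 68 carrier genes (rows, coloured by family) at weeks 2, 4, 8, 12 and 14 (columns), with a dot where the adjusted p was under 0.05. The only dot before week 14 is Slc13a2 at week 4, and at week 14 there are 15 dots, 12 of them on lower genes.

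At week 14 a glucose carrier and some carriers of di- and tricarboxylates and of organic ions were lower in pristane kidneys. A phosphate carrier, an arginine carrier and a sulfate carrier were higher. Of 68 carriers, 12 were lower and 3 were higher at an adjusted p under 0.05, and 53 did not pass. Among all genes 4.8% were lower and 6.97% higher at the same threshold, and among genes above the median of gene means 8.77% were lower, against 10 of the 43 carriers above it. The log2 fold change was negative for 51 of 68 carriers, where it was negative for 52.8% of all genes. The median was -0.38, where the median of all genes was 0.00. An unadjusted p under 0.05 was found for 42 of 68 carriers and for 5242 of 17097 genes. Above the median of gene means it was found for 35 of 43 carriers and for 4051 of 8548 genes. Among the 43 carriers above the median of gene means the median was -0.77, where it was -0.07 over all genes above it. With every array centred on its own median, or with quantile normalization over all arrays, 18 and 15 carriers were lower and 4 and 3 higher, with a negative sign in 53 and 52.

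These calls lie close to the threshold, with adjusted p from 0.0119 upward. The number of lower carriers changed widely in 13 of the 14 fits that left out 1 mouse. Leaving out pristane mouse 1 or 2 gave 25 and 29 lower carriers. Leaving out untreated mouse 1, 2, 3, 4 or 5 gave 2, 1, 1, 1 and 2, and leaving out pristane mouse 3, 4, 5, 6, 7 or 9 gave 2, 2, 3, 2, 2 and 2. Higher carriers ran from 0 to 7 in the same fits. The carriers that passed and are named with their values kept their direction there. Slc6a17 passed in 14 of 14 fits, Slc5a8 in 10, and Slc5a2, Slc5a11, Slc6a4, Slc7a2, Slc13a1, Slc13a2, Slc13a3, Slc22a7, Slc22a18, Slc22a23, Slc34a2 and Slc47a1 in 2 to 5. With all 11 groups in a single fit 35 were lower and 7 higher, while at an adjusted p under 0.01, 0 passed in either direction. With the adrenal gene mean of each kidney as a covariate 1 was lower and 0 were higher.

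**Figure D2:**
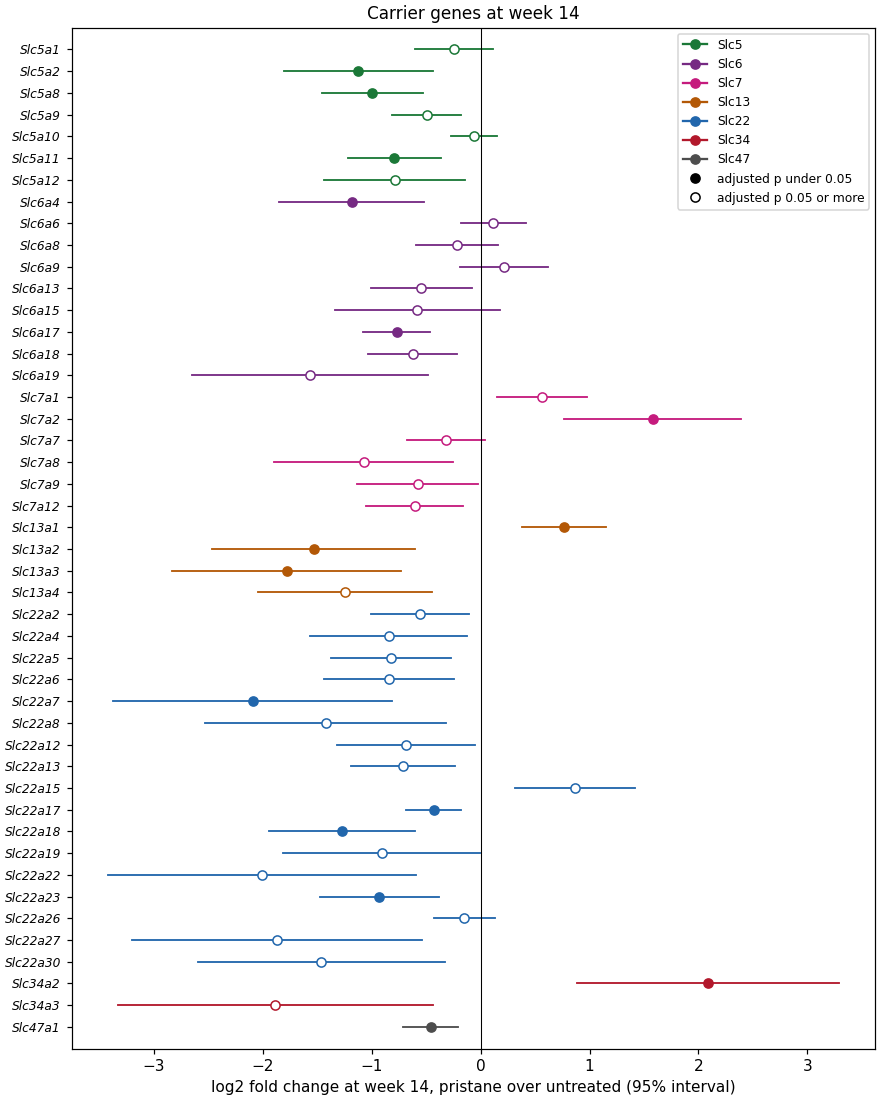
Log2 fold change at week 14, pristane over untreated, with its 95% interval, for the 43 carriers above the median of gene means and for the called carriers below it, coloured by family, with filled points where the adjusted p was under 0.05. Slc22a7 at -2.09 and Slc34a2 at 2.09 mark the ends, and most intervals of the Slc22 family lie below 0.

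In the Slc5 family, 3 of 10 genes were lower at week 14, 0 higher, and the median log2 fold change was -0.37. Over its 7 genes above the median of gene means it was -0.79. Slc5a2, the main glucose carrier of the early proximal tubule, had values of 7.26, 7.79 and 9.20 (lowest, median, highest) in pristane kidneys, against 9.15, 9.49, 9.13, 9.19 and 8.98 in the untreated ones. Pristane mice 1 and 2 lay within the untreated range and the other 7 below it. It fell by 1.12 on the log2 scale (SE 0.315, adjusted p = 0.0474). Slc5a8, which takes up lactate and other monocarboxylates, had values of 8.56, 8.74 and 9.86 in pristane kidneys and 9.64, 10.01, 9.78, 10.14 and 10.03 in untreated kidneys. It was lower than all untreated kidneys in 8 of 9 pristane kidneys and fell by 0.99 (SE 0.214, adjusted p = 0.021). Slc5a11, a carrier of myo-inositol, ranged over 6.22, 6.69 and 7.47 in pristane kidneys, against 7.23, 7.83, 7.50, 7.62 and 7.31 in untreated kidneys. Its values were below the untreated range in 8 of 9 pristane kidneys, and the fall was 0.79 on the log2 scale (SE 0.196, adjusted p = 0.0324).

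The remaining Slc5 carriers did not pass. Slc5a12, the low-affinity lactate carrier of the brush border, had values of 10.04, 10.88 and 11.83 in pristane kidneys, against 11.49, 12.05, 11.68, 12.05 and 12.09 without pristane. Of the pristane values 6 lay below the untreated range, and the log2 fold change was -0.79 (SE 0.30, adjusted p = 0.121). A second probe set of the gene gave -1.19 (adjusted p = 0.0442). Slc5a10, a carrier of fructose and mannose, had values of 9.97, 10.12 and 10.36 in pristane kidneys and 10.46, 10.14, 9.96, 10.44 and 10.004 in untreated kidneys. These groups overlapped, and the difference of -0.06 had a 95% interval from -0.27 to 0.15. Slc5a9, related to it, did not overlap between groups (5.14 to 5.998 in pristane kidneys), with a change of -0.50 on the log2 scale (adjusted p = 0.0564). Slc5a1, the high-affinity glucose carrier of the late proximal tubule, had a log2 fold change of -0.25 (adjusted p = 0.442), and a second probe set gave 0.33 in the other direction (adjusted p = 0.035).

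**Figure D3:**
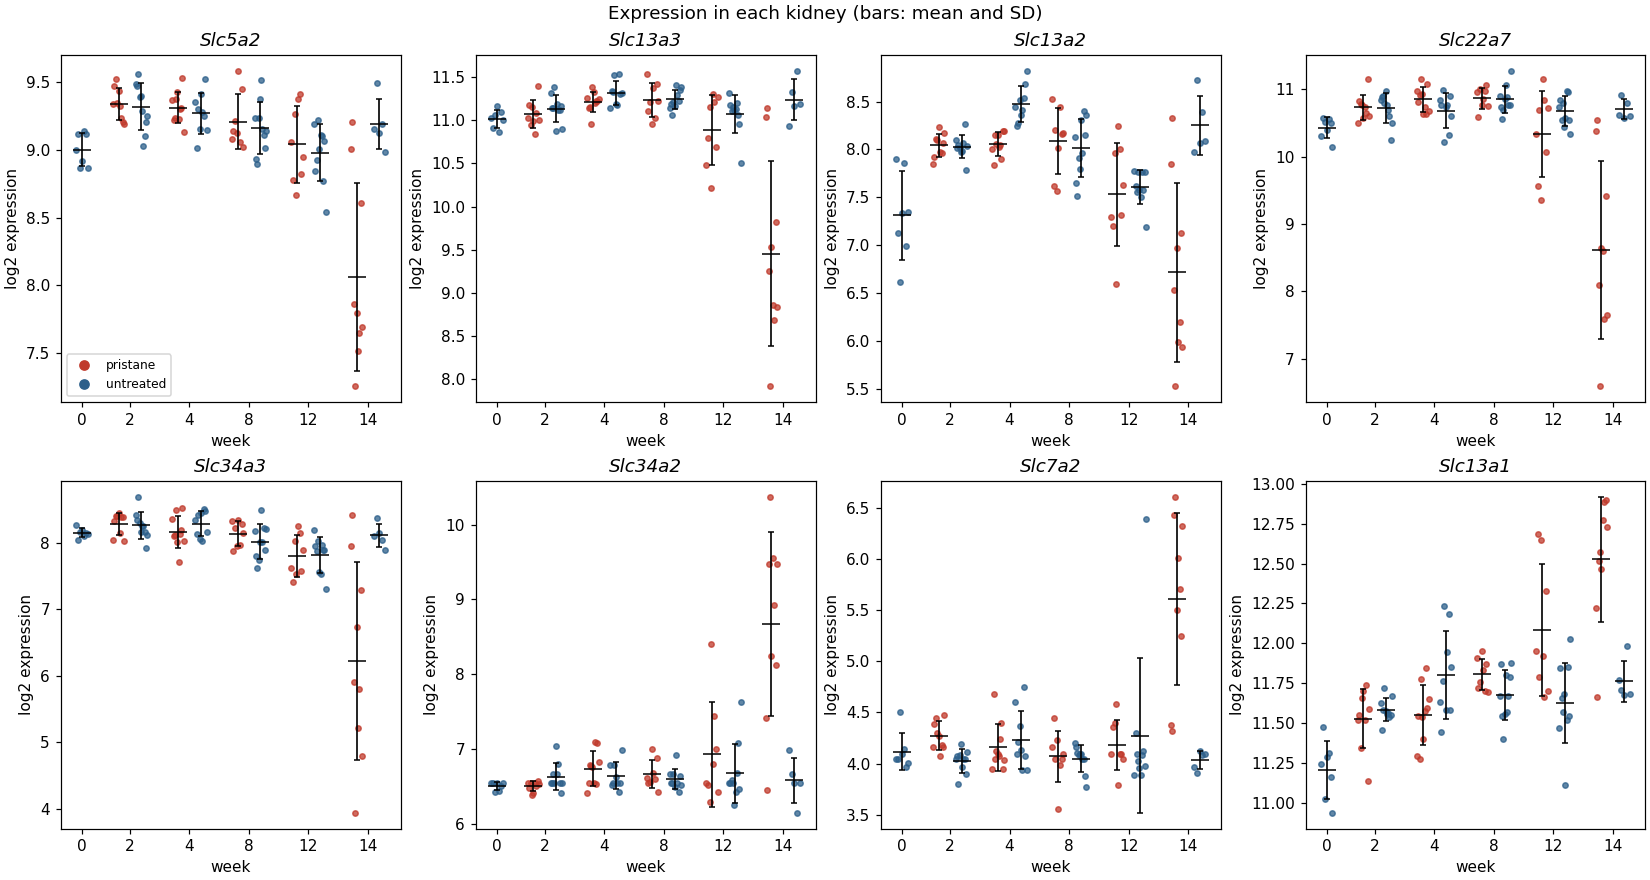
Log2 expression of Slc5a2, Slc13a3, Slc13a2, Slc22a7, Slc34a3, Slc34a2, Slc7a2 and Slc13a1 in each kidney by week, pristane in red to the left of untreated in blue, with bars for the mean and SD. Apart from Slc13a2 at week 4 the groups overlap at weeks 2 to 12, and at week 14 the pristane values spread out, with Slc34a3 between 3.94 and 8.42 against 7.89 to 8.38 in untreated kidneys.

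In the Slc6 family, 2 of 16 genes were lower, 0 higher, and the median log2 fold change was -0.06. Over its 8 genes above the median of gene means it was -0.56. The 2 lower genes were Slc6a4, the serotonin carrier, and Slc6a17, a vesicular carrier of neutral amino acids in neurons. Slc6a4 had values of 4.06, 4.48 and 5.83 in pristane kidneys, against 5.96, 6.13, 5.94, 6.42 and 5.12 in untreated kidneys. The untreated kidney at 5.12 lay within the pristane range, and Slc6a4 fell by 1.18 on the log2 scale (SE 0.306, adjusted p = 0.0374). Slc6a17 had values of 4.67, 4.93 and 5.55 in pristane kidneys and 5.77, 5.65, 6.04, 5.84 and 5.70 in untreated kidneys. All 9 pristane kidneys lay below all untreated ones, and its fall of 0.77 (SE 0.142, adjusted p = 0.0119) held in all 14 fits that left out 1 mouse (adjusted p up to 0.0425). Other probe sets of the gene did not pass, with -0.34 (adjusted p = 0.078) and -0.08 (adjusted p = 0.717). The mean of the chosen one, 5.75, lay just above the median of gene means.

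Of the epithelial members, Slc6a19, the main carrier of neutral amino acids in the brush border, had the largest fold change. Its values were 6.26, 7.38 and 9.21 in pristane kidneys, against 9.38, 9.53, 9.03, 9.51 and 9.27 in untreated kidneys. The log2 fold change was -1.57 (SE 0.499, adjusted p = 0.0707), with 7 of 9 pristane kidneys below the untreated range. Its relative Slc6a18 of the late tubule had -0.63 (adjusted p = 0.058). Slc6a13, which carries GABA and taurine, had -0.55 (adjusted p = 0.135), and Slc6a9, a glycine carrier, had 0.21 (adjusted p = 0.583). Slc6a6, which carries taurine, ranged over 10.99, 11.45 and 11.96 in pristane kidneys and over 11.50, 11.34, 11.34, 11.56 and 11.09 in untreated kidneys. These overlapped, and the difference of 0.12 had a 95% interval from -0.18 to 0.42. Slc6a8, the creatine carrier, had values of 9.81, 9.96 and 10.72 in pristane kidneys, against 10.41, 10.46, 10.25, 10.48 and 10.20 in untreated kidneys. Of its pristane values 6 lay below and 3 above the untreated range, and the log2 fold change was -0.22 (adjusted p = 0.532).

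In the Slc7 family, 1 of 15 genes was higher and 0 lower, and its median log2 fold change was -0.01. Over its 5 genes above the median of gene means it was -0.58. Slc7a2, a carrier of arginine and other cationic amino acids that is known from activated macrophages and liver, had values of 4.32, 5.71 and 6.60 in pristane kidneys, against 3.97, 3.91, 4.12, 4.08 and 4.09 in untreated kidneys. All 9 pristane kidneys lay above all untreated ones, and the log2 fold change was 1.58 (SE 0.376, adjusted p = 0.0294). The gene is below the median of gene means, and 2 of its other probe sets lay at the floor on 92 and 95 of the 95 arrays. Light chains of the brush border and the basolateral side, which work with Slc3a1 or Slc3a2, did not pass. Slc7a9, the cystine carrier, had -0.58 (adjusted p = 0.188), Slc7a8 -1.07 (adjusted p = 0.0975) and Slc7a7 -0.32 (adjusted p = 0.278).

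Slc7a7 ranged over 10.29, 10.76 and 11.39 in pristane kidneys and over 11.26, 11.30, 11.03, 11.23 and 11.11 in untreated kidneys, with 6 pristane values below and 2 above the untreated range. Slc7a12 of the late tubule ranged over 10.38, 11.01 and 11.86 in pristane kidneys, against 11.64, 11.73, 11.76, 11.81 and 11.79. It had 7 values below and 1 above that range, and a log2 fold change of -0.61 (adjusted p = 0.0855). Slc7a1, Slc7a5 and Slc7a6, which supply cells in general with cationic and large neutral amino acids, had positive values of 0.56, 0.81 and 0.68 (adjusted p = 0.0862, 0.112 and 0.0886).

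In the Slc13 family, 2 of 5 genes were lower and 1 was higher, and the median log2 fold change was -1.24. Over its 4 genes above the median of gene means it was -1.39. Slc13a3, the basolateral carrier of succinate and other dicarboxylates, had values of 7.92, 9.25 and 11.14 in pristane kidneys, against 10.93, 11.33, 11.17, 11.57 and 11.19 in untreated kidneys. Slc13a2 had values of 5.52, 6.53 and 8.32 in pristane kidneys and 7.97, 8.73, 8.06, 8.39 and 8.09 in untreated kidneys. Slc13a3 fell by 1.78 (SE 0.485, adjusted p = 0.0436), with 7 of 9 pristane kidneys below the untreated range. Slc13a2 fell by 1.53 (SE 0.428, adjusted p = 0.0469), with 8 of 9 below it. Slc13a4, a sulfate carrier, had values of 4.18, 4.77 and 6.28 in pristane kidneys, against 5.94, 6.69, 6.15, 6.42 and 6.52, and a log2 fold change of -1.24 (adjusted p = 0.0559).

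Slc13a1, the sulfate carrier of the brush border, went the other way. Its values were 11.66, 12.57 and 12.90 in pristane kidneys, against 11.77, 11.71, 11.67, 11.98 and 11.68 in untreated kidneys, so that 8 of 9 pristane kidneys lay above the untreated range. The log2 fold change was 0.76 (SE 0.179, adjusted p = 0.028). A second probe set gave 0.26 (adjusted p = 0.644). Slc13a5, a citrate carrier of liver, lay near the floor with no more than 2.40 in any untreated kidney of week 14.

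In the Slc22 family of organic ion carriers, 4 of 19 genes were lower and 0 higher, and the median log2 fold change of -0.84 was the second lowest of the families, after Slc13. Over its 16 genes above the median of gene means it was -0.88. Slc22a7, Oat2, which carries organic anions, had values of 6.59, 8.59 and 10.55 in pristane kidneys, against 10.62, 10.92, 10.57, 10.81 and 10.61 in untreated kidneys. All 9 pristane kidneys lay below all untreated ones, and it fell by 2.09 on the log2 scale (SE 0.591, adjusted p = 0.0482). Slc22a18 and Slc22a23, whose substrates are poorly known, had pristane values of 8.55, 8.95 and 10.62 and of 8.25, 8.95 and 9.84. The untreated values were 10.54, 10.58, 10.42, 10.69 and 10.26 for Slc22a18 and 9.69, 9.91, 9.83, 10.003 and 9.95 for Slc22a23. In both, 8 of 9 pristane kidneys lay below the untreated range, and they fell by 1.28 and 0.93 (SE 0.309 and 0.252, adjusted p = 0.0305 and 0.0427). Slc22a17, a receptor for lipocalin-2, fell by 0.43 (adjusted p = 0.0428), although it lies below the median of gene means.

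Further Slc22 genes did not pass, although 7 or 8 of 9 pristane kidneys lay below the untreated range for Slc22a22, Slc22a27 and Slc22a19. Slc22a22, known as a prostaglandin carrier in mouse kidney, had values of 5.91, 7.95 and 10.36 in pristane kidneys, against 10.18, 10.25, 10.11, 10.61 and 10.19 in untreated kidneys, and a log2 fold change of -2.01 (adjusted p = 0.0757). Slc22a27 had values of 7.80, 9.97 and 11.89 in pristane kidneys, against 11.74, 12.09, 12.06, 12.12 and 12.03, and a change of -1.87 (adjusted p = 0.0778). One of its other probe sets gave -1.46 and passed (adjusted p = 0.0426). Slc22a19 ranged over 8.97, 10.83 and 11.86 in pristane kidneys, against 11.60, 11.67, 11.52, 11.77 and 11.71, with a change of -0.91 (adjusted p = 0.209). Slc22a12, which carries urate, had -0.69 (adjusted p = 0.172), and a second probe set -0.84 (adjusted p = 0.0342). Slc22a26 differed by -0.15 on its chosen probe set and by -1.78 (adjusted p = 0.084) on the other. Slc22a15 was the carrier of this family with the largest positive value, at 0.87 (adjusted p = 0.054), with values of 6.01, 7.32 and 7.67 in pristane kidneys and 6.45, 5.85, 6.45, 5.95 and 6.41 in untreated kidneys. Slc47a1, Mate1, which exchanges organic cations for protons at the brush border, fell by 0.46 (SE 0.118, adjusted p = 0.0357). Its values were 10.69, 10.91 and 11.36 in pristane kidneys, against 11.44, 11.43, 11.37, 11.61 and 11.29.

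Slc22a5, the carnitine carrier, and Slc22a2, which takes up organic cations on the blood side, had log2 fold changes of -0.83 and -0.56 (adjusted p = 0.0637 and 0.117), each with 7 of 9 pristane kidneys below the untreated range. Slc22a4, which carries ergothioneine, had -0.84 (adjusted p = 0.136). Slc22a13 and Slc22a30 had -0.71 and -1.46 (adjusted p = 0.0654 and 0.101), with 8 and 7 pristane kidneys below the untreated range and 1 above it.

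The basolateral carriers of organic anions, Slc22a6 (Oat1) and Slc22a8 (Oat3), had log2 fold changes of -0.84 and -1.42 (adjusted p = 0.0761 and 0.103). Slc22a6 ranged over 9.17, 10.16 and 10.998 in pristane kidneys and over 11.07, 11.05, 10.88, 10.98 and 10.77 in untreated kidneys. Slc22a8 ranged over 6.73, 8.91 and 10.33 in pristane kidneys, against 10.18, 10.16, 10.05, 10.48 and 9.91. In both, 7 of 9 pristane kidneys lay below the untreated range, and the genes lie next to each other on chromosome 19. Their promoters are shown from 250 bases before to 50 after the gene's start (RefSeq, GRCm38.p6), since both hold the letters GTTAAT, a core of the HNF1 motif, in capitals. These letters occur, on either strand, in 8.24% of 27025 gene promoters of this length and in 6 of 49 carriers that have an entry. The match is a description, and 19 carriers have no entry in the table used here. Slc22a6 (chr19:8617746-8618045, plus strand) and Slc22a8 (chr19:8592932-8593231, plus strand) read:
Slc22a6: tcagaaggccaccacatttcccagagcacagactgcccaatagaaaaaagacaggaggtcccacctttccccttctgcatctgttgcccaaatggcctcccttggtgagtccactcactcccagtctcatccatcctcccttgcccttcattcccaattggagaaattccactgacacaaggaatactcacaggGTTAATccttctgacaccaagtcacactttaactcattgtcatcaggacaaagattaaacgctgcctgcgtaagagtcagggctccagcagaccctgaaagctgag
Slc22a8: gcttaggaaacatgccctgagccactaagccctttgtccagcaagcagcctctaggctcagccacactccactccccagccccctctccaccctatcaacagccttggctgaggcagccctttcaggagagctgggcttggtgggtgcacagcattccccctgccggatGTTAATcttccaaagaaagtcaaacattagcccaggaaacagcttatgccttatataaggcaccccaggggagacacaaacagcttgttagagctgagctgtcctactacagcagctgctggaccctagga

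Among the phosphate carriers, the 2 measured genes of the Slc34 family had fold changes of opposite sign, of which the positive one passed. Slc34a1, a phosphate carrier listed for the early and middle segment, was not among the 68 genes. Phosphate carriers of the tubule are thus described without it. Slc34a2, known from lung and intestine, had values of 6.46, 8.93 and 10.37 in pristane kidneys, against 6.99, 6.67, 6.55, 6.15 and 6.55 in untreated kidneys. It lay above the untreated range in 8 of 9 pristane kidneys, and the log2 fold change was 2.09 (SE 0.554, adjusted p = 0.0402). Slc34a3, a sodium-phosphate carrier of the brush border, had values of 3.94, 5.91 and 8.42 in pristane kidneys, against 8.11, 8.38, 8.15, 8.04 and 7.89 in untreated kidneys. Its log2 fold change was -1.89 (SE 0.667, adjusted p = 0.098), with 7 of 9 pristane kidneys below the untreated range and 1 above. Their promoters are shown because the fold changes of the pair differ in sign, and neither holds GTTAAT, the HNF4 core CAAAGT (in 16.1% of all promoters) or the AP-1 site TGANTCA (in 8.97%). Slc34a2 (chr5:53049103-53049402, plus strand) and Slc34a3 (chr2:25234185-25234484, minus strand) read, without capitals:
Slc34a2: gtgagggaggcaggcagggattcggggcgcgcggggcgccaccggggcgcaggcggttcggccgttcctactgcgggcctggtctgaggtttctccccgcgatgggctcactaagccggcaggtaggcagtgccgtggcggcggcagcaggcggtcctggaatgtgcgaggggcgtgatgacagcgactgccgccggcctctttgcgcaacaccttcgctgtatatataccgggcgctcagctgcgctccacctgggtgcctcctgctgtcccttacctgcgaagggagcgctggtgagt
Slc34a3: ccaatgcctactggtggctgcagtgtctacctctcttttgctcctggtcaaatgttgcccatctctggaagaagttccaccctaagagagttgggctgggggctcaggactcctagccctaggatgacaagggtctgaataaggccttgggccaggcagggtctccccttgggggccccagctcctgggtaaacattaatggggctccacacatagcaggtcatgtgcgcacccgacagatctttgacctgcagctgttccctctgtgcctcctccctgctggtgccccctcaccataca

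Of the carriers whose groups did not overlap at week 14, Slc22a7, Slc5a9 and Slc6a17 were lower and Slc7a2 was higher, where 0.76% of all genes were lower and 3.2% higher without overlap. In the median over carriers, pristane mice 1 and 2 were close to untreated kidneys. Both lay outside the untreated range for each carrier just named. Over the 43 carriers above the median, the median log2 difference from the mean of untreated kidneys was -0.04 in pristane mouse 1 and 0.01 in mouse 2, and ran from -1.40 in mouse 4 to -0.51 in mouse 8 in the other 7. The untreated kidneys ran from -0.10 to 0.13. Mouse 4 had 29 of 43 carriers more than 1 log2 unit lower, mouse 8 had 9, and mice 1 and 2 had 0. The injury gene Havcr1 was at 7.04 and 4.15 in pristane mice 1 and 2 and from 8.76 to 10.80 in the other 7, against 3.99 to 4.37 in untreated kidneys. Its relation to the carriers was not tested. The median SD of the 43 carriers was 0.558 in pristane kidneys of week 14, against 0.151 to 0.293 in the other 10 groups.

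**Figure D4:**
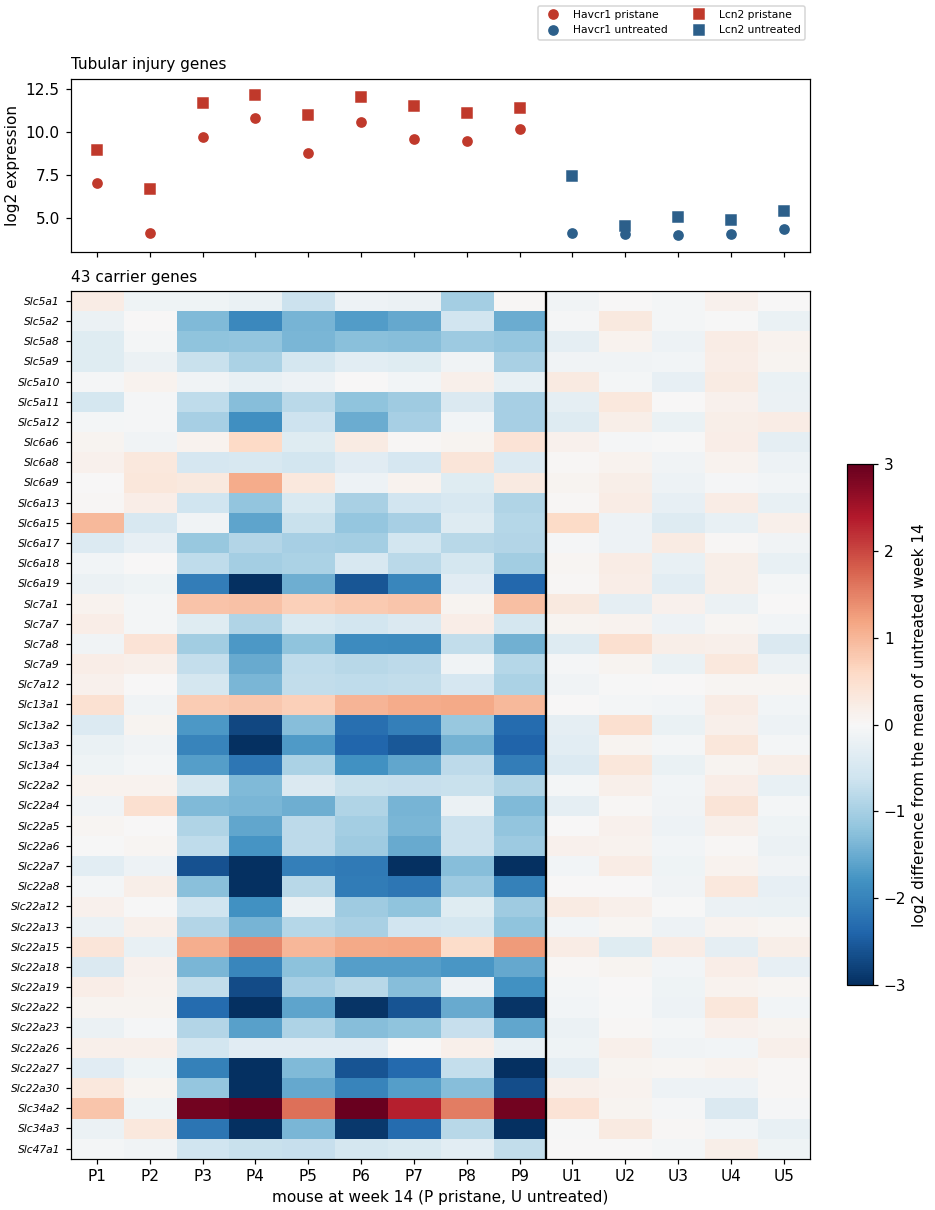
Lower panel, log2 difference of 43 carriers (rows) from the mean of untreated week 14 kidneys in each mouse of week 14 (columns P1 to P9 pristane, U1 to U5 untreated), with colour saturated at 3. Upper panel, log2 expression of Havcr1 and Lcn2, which in P1 and P2 were 7.04 and 4.15 and 8.99 and 6.68.

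Of 7 measured partner subunits and scaffolds, 2 were lower and 0 higher at week 14. These were Slc3a1, the heavy chain of Slc7a9, by 0.56 on the log2 scale (adjusted p = 0.0438) and Pdzk1, which anchors carriers of the brush border, by 0.93 (adjusted p = 0.0482). Of 32 other carriers of the proximal tubule, 3 were lower and 1 higher, with a median log2 fold change of -0.36. These counts stand beside 4.8% of all genes lower, 8.77% of genes above the median lower and 6.97% of all genes higher, and nothing particular to the list is read from them, nor from the shorter lists. Slc1a1, a glutamate carrier, fell by 0.63 (adjusted p = 0.0149) and Slc20a1, a sodium-phosphate carrier of most cells, rose by 0.81 (adjusted p = 0.0139). Of 7 regulators of phosphate transport 1 was lower, Kl, the co-receptor of the phosphate-regulating hormone of bone, by 1.17 (adjusted p = 0.0463). Of 5 measured transcription factors of the proximal tubule 1 was lower, Ppara, by 1.35 (adjusted p = 0.0175), while Hnf4a had -0.26 (adjusted p = 0.095).

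Grouped by tubule segment, 1 of 6 carriers of the early and middle segment and 0 of 6 of the straight segment were lower. Their medians were -0.93 and -0.62. Of 3 carriers listed for the middle and straight segments, Slc22a6, Slc22a8 and Slc13a3, 1 was lower, the dicarboxylate carrier Slc13a3. The median of these 3 was -1.42. Apart from the segments, 2 of 7 measured carriers listed for nerve were lower, the serotonin carrier Slc6a4 and the amino acid carrier Slc6a17. With 4.8% of all genes and 8.77% of genes above the median lower, counts this small do not tell the segments apart.

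Markers of other cells moved in the same kidneys. Of 8 macrophage and monocyte genes 7 were higher, and their mean log2 level ran from 6.73 to 8.73 in pristane kidneys, against 5.01 to 5.67 in untreated kidneys of week 14. Of 5 fibroblast genes 4 were higher, with means from 7.16 to 9.04 in pristane kidneys, against 6.09 to 6.55. Of 5 T cell genes 3 were higher, with means from 4.22 to 6.68 in pristane kidneys, against 3.60 to 3.92. Of 4 neutrophil genes 2 were higher, and of 3 B and plasma cell genes 1 was. Of 7 proximal tubule markers 1 was lower, Aqp1. The mean of all 7 ran from 10.69 to 12.15 in pristane kidneys, against 12.11 to 12.28, and their median log2 fold change was -0.69. Some markers of other nephron segments were lower too. Of 5 genes of the thick ascending limb and distal tubule 2 were lower, Slc12a3 and Calb1. All 5 had a median of -1.08, and their mean ran from 9.91 to 11.91 in pristane kidneys, against 11.78 to 12.04. Of 4 collecting duct genes 1 was lower, Slc4a1. All 4 had a median of -0.52, and their mean ran from 5.56 to 6.71 in pristane kidneys, against 6.61 to 6.98. Of 4 podocyte genes 0 passed, with a median of -0.27, and of 5 perirenal fat genes 0 passed, with a median of -1.38. Of 10 adrenal genes 0 passed, and their mean was from 3.47 to 6.22 in pristane kidneys, with 6.22, 5.58 and 5.16 in mice 4, 5 and 6, against 3.52 to 3.77. The part of these cells in the carrier values was not tested.

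The pristane effect at week 14 differed from the mean effect of weeks 2, 4, 8 and 12 for most carriers above the median. It was lower for 35 and higher for 6 of 68, where 14% and 9.79% of all genes were, and lower for 32 of the 43 above the median, where 26% of genes above it were. The lowest differences of effects were those of Slc22a7, at -2.06 (SE 0.30, adjusted p = 3.21e-07), Slc22a22, at -2.00 (adjusted p = 2.08e-06), and Slc34a3, at -1.89 (adjusted p = 3.97e-06). The highest were those of Slc34a2, at 2.02 (adjusted p = 3.21e-07), Slc7a2, at 1.55 (adjusted p = 1.66e-06), and Slc22a15, at 0.88 (adjusted p = 0.000959). By family, 5 of 10 Slc5, 5 of 16 Slc6, 5 of 15 Slc7, 3 of 5 Slc13 and 15 of 19 Slc22 genes had a lower effect. Lower effects numbered 33 to 37 in 88 fits that left out 1 mouse, and 35 with weights for the spread of each group. This comparison shares its week 14 mice with the comparison above, and its pooled spread is smaller than that of pristane kidneys at week 14.

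Untreated kidneys also differed between week 14 and week 0, with 4 carriers lower and 11 higher, where 4.91% of all genes were lower and 11.2% higher. Of the 43 carriers above the median of gene means 11 were higher and 0 lower, where 1764 of 8548 genes were higher and 544 lower. Nothing particular to the carriers is read from these counts. With median centring 5 were lower and 25 higher, a scaling that moved the median of all genes by 0.11, and with quantile normalization 8 were lower and 5 higher, so the balance of directions depends on the scaling. Slc5a1 had values of 8.69, 8.82, 8.75, 8.93 and 8.82 in untreated kidneys of week 14, against 6.96, 7.90 and 8.16 (lowest, median, highest) at week 0. The groups did not overlap, and it was 1.12 higher on the log2 scale (SE 0.197, adjusted p = 0.00576). Slc13a2 was higher by 0.94 (adjusted p = 0.0244), with week 14 values from 7.97 to 8.73 and week 0 values from 6.61 to 7.90. Slc6a19 was higher by 0.81 (adjusted p = 0.00552), from 9.03 to 9.53 at week 14 and 8.03 to 8.81 at week 0.

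Among the 4 lower carriers, Slc6a14, a carrier of neutral and cationic amino acids, had values of 4.83, 5.06, 5.10, 4.83 and 5.26 at week 14, against 6.07, 6.16 and 6.75 at week 0. These groups did not overlap, and it was 1.25 lower (log2 fold change -1.25, adjusted p = 0.000443). Slc6a2, the noradrenaline carrier, had -0.94 (adjusted p = 0.0212), and Slc6a12, which carries betaine in the inner kidney, had -0.92 (adjusted p = 0.0176). Means of untreated kidneys at week 2 already stood at 8.63 for Slc5a1 and 5.09 for Slc6a14, against 7.68 and 6.26 at week 0. In the same mice the 3′ minus 5′ difference of Gapdh ran from 1.01 to 1.13 at week 14 and from 1.26 to 1.48 at week 0. Actin averaged 2.53 at week 14 and 2.69 at week 0, while the transferrin receptor (3.58 at week 14 and 3.43 at week 0) and pyruvate carboxylase (3.90 at week 14 and 3.63 at week 0) had the opposite sign. The part of RNA quality was not tested. Without untreated week 14 mouse 4, 1 was lower and 6 were higher, and without week 14 mouse 2, or week 0 mouse 7, 5 and 7 were higher.

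**Figure D5:**
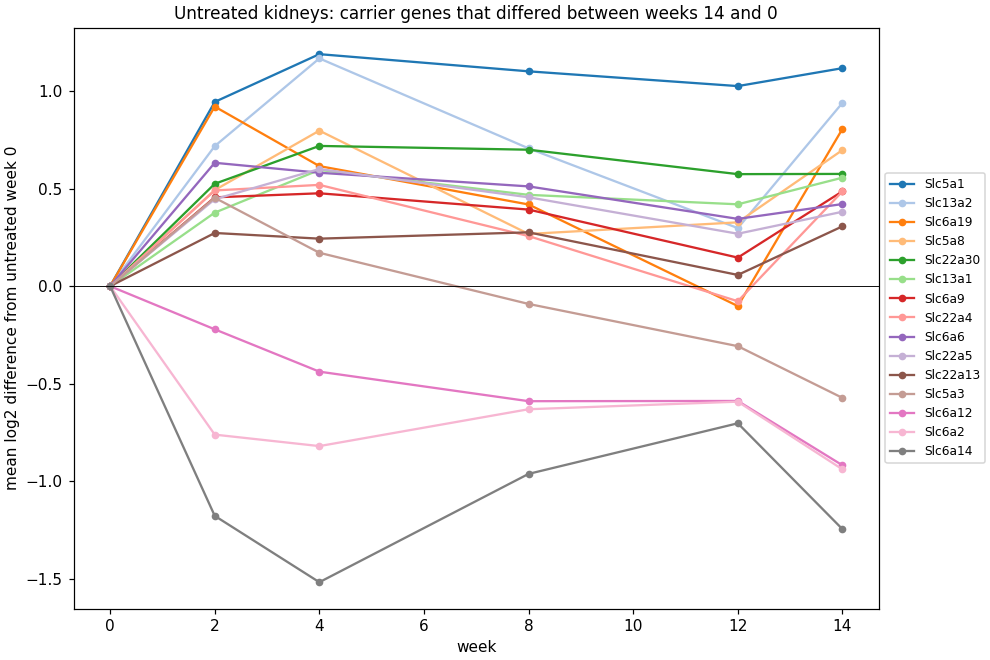
Mean log2 difference of untreated kidneys from untreated week 0 (y axis) by week (x axis) for the 15 carriers that passed the test between weeks 14 and 0. Slc5a1 stands 1.12 above week 0 at week 14 and Slc6a14 1.25 below it.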

How the data were processed

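The authors normalized the probe intensities with Robust Multi-array Average (RMA) in R, and the submitters' processing notes also list Partek. The deposited values are log2 expression of 45141 probe sets on 95 arrays. The test covered 45037 of them, without 104 array controls. Genes were named from the array annotation. The lowest value, 2.21, is shared by 18.6% of all values.

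Differences were tested with limma 3.58.1 in R 4.3.3 (lmFit and eBayes, a moderated test), each week's pristane and untreated mice alone, with Benjamini-Hochberg adjustment over all 45037 probe sets and an adjusted p under 0.05, with no minimum fold. The difference of effects was a contrast over weeks 2, 4, 8, 12 and 14. Error terms are standard errors (SE) or standard deviations (SD). The genes named are, for each family, up to 3 carriers with the largest change past the test at week 14 and up to 2 with the highest mean, those past the test elsewhere, and carriers above the median of gene means. Slc7a5, Slc7a6, Slc7a14 and Slc22a17 are named outside this rule, a choice made once their values had been seen.

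Members, lists and tests were chosen with earlier results of these data known. Each array is labelled by week, state and number and was taken as a separate mouse, and p-values measure only the spread between these arrays. Alternatives tried were 2 scalings, a filter at the 40th percentile, all groups in a single fit, other eBayes settings, group weights, a replicate block, a stricter adjusted p of 0.01, a fold change over 2, a mean over probe sets, an adrenal covariate, all untreated mice as controls, and leaving out each mouse. The test was also tried on simulated data with the spread of untreated week 8 kidneys in every group. Pristane kidneys of week 14 spread more widely, so that trial cannot show how stable the week 14 calls are. Sequences are from RefSeq.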

Additional observations from a re-analysis of the deposited data

Results flagged for a closer look

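Of 352 groups of values, 34 held a mouse set apart from the rest of its group by a wide gap, where chance alone sets a mouse apart in about 1 in 20 groups. Untreated week 12 mouse 10 was set apart in 5 carriers. It had 6.39 for Slc7a2 (next 4.30), 10.51 for Slc13a3 (next 10.96), 7.19 for Slc13a2 (next 7.51), 11.14 for Slc22a27 (next 11.78) and 8.95 for Slc22a22 (next 9.76). In the same mouse the injury gene Havcr1 was at 6.72 and Lcn2 at 9.83, against at most 4.92 and 6.80 in the other untreated mice of week 12.

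Further high log2 values were those of Slc5a8 in pristane week 8 mouse 1 (10.07), Slc6a4 in pristane week 8 mouse 2 (6.07), Slc7a2 in untreated week 0 mouse 3 (4.50), Slc7a7 and Slc34a2 in untreated week 8 mouse 6 (11.48 and 6.93), Slc22a22 in untreated week 14 mouse 4 (10.61) and Slc6a12 in untreated week 8 mouse 8 (5.295). Slc6a2 was high in pristane week 2 mouse 8 (4.18), pristane week 14 mouse 8 (4.34), untreated week 0 mouse 5 (5.50) and untreated week 2 mouse 8 (4.49). Slc13a5, near the floor, was high in pristane week 4 mouse 7 (2.47), pristane week 8 mouse 8 (2.63), pristane week 12 mouse 3 (2.41), untreated week 4 mouse 7 (3.02) and untreated week 12 mouse 5 (2.74).

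Further low log2 values were those of Slc5a11 in pristane week 12 mouse 1 (6.80), Slc5a12 in pristane week 8 mouse 6 (11.24) and untreated week 12 mouse 2 (10.90), Slc6a6 in pristane week 4 mouse 7 (11.12) and untreated week 2 mouse 7 (11.27), and Slc6a8 in untreated week 0 mouse 3 (9.805). Slc13a4 was low in untreated week 8 mouse 2 (5.298). Slc22a19 was low in pristane week 8 mouse 4 (11.53), Slc22a27 in untreated week 14 mouse 1 (11.74) and Slc7a12 in untreated week 4 mouse 7 (11.71). Slc6a12 was low in pristane week 12 mouse 5 (4.15) and pristane week 14 mouse 9 (3.20), and Slc5a1 in pristane week 12 mouse 8 (8.26).

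The pristane effect at week 14 differed from the mean effect of weeks 2, 4, 8 and 12, by the contrast in limma, for Slc22a7 (-2.06), Slc22a22 (-2.00), Slc34a3 (-1.89), Slc34a2 (2.02), Slc7a2 (1.55) and Slc22a15 (0.88).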

How the results depend on the processing

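The number of arrays limits the precision, and the cause of each change below was not tested. At week 14, lower and higher carriers numbered 26 and 6 with a filter at the 40th percentile, 35 and 7 with all groups in a single fit, 26 and 7 with group weights, 1 and 0 with the adrenal covariate, 40 and 9 with all untreated mice as controls, and 0 and 0 at 0.01 as the threshold. A mean over probe sets gave 20 lower, and a minimum of 2-fold gave 6. With the replicate block they numbered 0 and 0 at week 14, 0 were lower at week 4, and 1 was lower and 4 higher for untreated week 14 against week 0. Correlations of same-numbered mice ran from -0.54 to 0.59, and exceeded 0.1 in 2 of 5 pairs at week 14. Week 2 had the most pairs above 0.1 (5 of 9), while week 12 had the fewest (1 of 8). With so wide a range these correlations cannot decide whether equal numbers mark paired mice. The counts with the replicate block therefore stand beside the others.

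At week 2, 1 was higher with the filter or the mean over probe sets, and 1 was lower and 4 higher with all untreated mice. At week 4, 0 were lower in the single fit, at 0.01, with the fold minimum or with all untreated mice, where Slc13a2 turned to 0.11. At week 12, 2 were higher in the single fit, and 6 lower and 1 higher with all untreated mice. For untreated week 14 against week 0, 25 were higher with median centring, 8 lower and 5 higher with quantile normalization, 17 higher with the filter, 9 lower in the single fit, 1 lower and 4 higher at 0.01, 1 and 1 with the fold minimum, and 2 and 4 with the adrenal covariate. For the difference of effects, 13 and 2 passed the fold minimum. Slc5a10 at week 14 turned to 0.001542 with quantile normalization and 0.005274 with all untreated mice.

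Leaving out 1 mouse gave 0 to 1 lower and 0 to 0 higher at week 2, 0 to 1 lower at week 4, 0 to 1 higher at weeks 8 and 12, 1 to 29 lower and 0 to 7 higher at week 14, 1 to 5 lower and 5 to 12 higher between untreated weeks, and 33 to 37 lower and 6 to 7 higher effects. Slc5a10 ran from -0.12 to 0.004401 at week 14, its highest without untreated mouse 1.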
